A study of Mus musculus with 12 samples.

Results

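The 45 genes described here carry the names of the solute carrier (SLC) families that move amino acids and their relatives across membranes. They are the protein-coding genes of the families SLC1, SLC3, SLC6, SLC7, SLC36, SLC38 and SLC43 that are present in both time points' tables with at least 20 raw reads summed over the 12 libraries, with Slc7a11 left out. By symbol, 60 genes matched, of which 15 were left out for their biotype, their low counts, their absence from 1 of the tables, or by name. The tables share 24230 genes, and 15188 of these are protein-coding with the same count minimum. The weakest members were Slc6a3 with 20 reads in all and Slc6a20b with 26, and the genes just below the minimum were Slc6a4 with 19 and Slc7a15 with 16. Slc7a6os enters by its symbol alone: it is a neighbour of Slc7a6 on the opposite strand and encodes no known transporter.

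Mammalian cells take up most amino acids through a layered set of carriers. Sodium-coupled carriers of the SLC1, SLC6 and SLC38 families load the cell with neutral amino acids such as alanine, serine and glutamine, and exchangers of the SLC7 family then trade these for essential amino acids such as leucine. Many SLC7 exchangers reach the plasma membrane only when bound to a single-pass heavy chain of the SLC3 family, while SLC36 carriers and some SLC38 members act on lysosomes, where amino acids are sensed by the growth kinase mTORC1. When amino acids run short or the endoplasmic reticulum is stressed, the transcription factor ATF4 raises several of these genes, and NRF2, the factor of the oxidative stress response, raises the cystine carrier that shares the same heavy chain.

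RNA of primary cardiac fibroblasts from C57BL/6 mice, the matrix-producing cells of the heart, was sequenced after culture in medium with serum. The cells received ethanol as vehicle or 6 µM MCB-613-10-1 and were harvested after 4 h or 24 h, which gives 4 groups of 3 libraries: vehicle at 4 h, treated at 4 h, vehicle at 24 h and treated at 24 h. MCB-613-10-1 is a derivative of MCB-613, a small molecule that stimulates steroid receptor coactivators, and the study asked how it changes the transcriptome of these cells as an agent against fibrosis. Libraries held 25016754 to 34877090 reads assigned to genes. Nothing in the labels says that libraries of 1 group came from separate cultures or animals. The p-values therefore reflect the spread among these libraries, which may be technical.

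Levels are given as CPM, a gene's read count scaled to a common library total after TMM scaling (edgeR's correction for library composition) over all 12 libraries. The 8 fibroblast markers checked were present in every group, with summed levels of 9840 to 15300 CPM in vehicle libraries and of 4200 to 4690 CPM in treated libraries at 24 h. Of 8 cardiomyocyte genes, Myh6, Myh7, Myl2, Actc1, Nppa and Pln had 4 to 16 reads each over the 12 libraries, Ttn was under 2 CPM in every library, and Tnnt2 had a mean of 15.8 CPM in vehicle at 4 h and of 17.5 CPM in vehicle and 6.51 CPM in treated cells at 24 h. Macrophage and leukocyte markers were low but present, and at 24 h their 7 genes summed to 316 to 366 CPM in vehicle and 153 to 172 CPM in treated libraries. At 4 h they summed to 94.5 to 101 CPM in vehicle and 67.3 to 86.6 CPM in treated libraries, so vehicle was higher at 24 h. In bulk RNA, fewer cells of a type and less RNA per cell cannot be told apart, and this holds for each difference given here.

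The promoter windows of 31 of the 45 members were found by symbol in RefSeq's table for the build GRCm38.p6, which holds 47 windows for them, each from 250 bases before to 50 bases after a transcription start. They were searched on both strands for TGATGNAA, the core of the C/EBP-ATF response element that ATF4 dimers bind, and for TGACNNNGC, the core of the antioxidant response element that NRF2 binds with small MAF proteins. Of 32851 windows of this length in the table, 3.97% hold the first and 12.4% the second, against 3 of the 47 member windows (6.38%) and 9 of 47 (19.1%). Counted by gene, 2 of 31 members (6.45%) hold TGATGNAA and 7 of 31 (22.6%) hold TGACNNNGC, against 4.51% and 14% of 27025 genes in the table. A match is a description of letters, not of a bound site. The 4 windows below belong to members whose levels at 24 h were at least 1 log2 unit higher in treated cells. That of Slc1a4 was taken because it holds TGATGNAA, and those of Slc38a2, Slc7a1 and Slc6a9 were chosen for TGACNNNGC after their values were seen. Each is printed 5′ to 3′ on the gene's strand from 250 bases before to 20 bases after the start, with the motif in capitals.
Slc1a4, chr11:20332694-20332963, minus strand: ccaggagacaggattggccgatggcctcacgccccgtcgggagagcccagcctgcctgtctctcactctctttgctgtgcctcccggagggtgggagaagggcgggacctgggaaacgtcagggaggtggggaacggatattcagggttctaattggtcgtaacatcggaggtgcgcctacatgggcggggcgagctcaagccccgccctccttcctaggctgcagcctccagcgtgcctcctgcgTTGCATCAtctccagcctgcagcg
Slc38a2, chr15:96699709-96699978, minus strand: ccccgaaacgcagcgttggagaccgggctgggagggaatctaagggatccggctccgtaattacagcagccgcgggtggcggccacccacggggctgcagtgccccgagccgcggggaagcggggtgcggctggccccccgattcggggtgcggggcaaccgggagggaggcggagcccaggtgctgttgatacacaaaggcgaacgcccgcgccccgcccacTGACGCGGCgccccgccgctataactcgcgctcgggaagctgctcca
Slc7a1, chr5:148399885-148400154, minus strand: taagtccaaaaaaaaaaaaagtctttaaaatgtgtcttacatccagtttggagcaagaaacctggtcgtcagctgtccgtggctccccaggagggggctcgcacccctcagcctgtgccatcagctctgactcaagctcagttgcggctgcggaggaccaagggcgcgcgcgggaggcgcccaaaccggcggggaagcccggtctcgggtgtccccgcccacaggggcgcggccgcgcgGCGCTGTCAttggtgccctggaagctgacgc
Slc6a9, chr4:117849100-117849369, plus strand: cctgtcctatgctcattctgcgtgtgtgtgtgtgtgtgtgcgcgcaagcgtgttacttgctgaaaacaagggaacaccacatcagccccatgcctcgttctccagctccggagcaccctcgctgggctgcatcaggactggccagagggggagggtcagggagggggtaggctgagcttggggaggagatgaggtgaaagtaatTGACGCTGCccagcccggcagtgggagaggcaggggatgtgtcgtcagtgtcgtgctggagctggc
The capitals in Slc1a4 begin 4 bases before the start and hold TGATGNAA on the opposite strand. The capitals begin 27 bases before the start in Slc38a2 and 46 bases before it in Slc6a9, and in Slc7a1 they begin 11 bases before it, with TGACNNNGC on the opposite strand. None of the 4 windows holds both motifs. Not printed are the windows with TGACNNNGC of Slc36a1, Slc7a6, a second start of Slc6a9, Slc43a1, which was lower at both times, and Slc6a16, which was too low to test. The other member with TGATGNAA, Slc7a7, was not called at either time. The window of Slc3a2 holds neither motif, and no window was found for Slc7a5, Slc6a8, Slc7a3 or Slc1a5, so these were not searched.

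Levels of different genes are compared only as CPM per kilobase (kb) of the gene length in the tables. On that scale the members summed to 610.2 ± 20.8 CPM per kb (SD, n = 3) in vehicle and 767.3 ± 38.2 in treated cells at 4 h, and to 433.9 ± 10.9 in vehicle and 883.3 ± 24.0 in treated cells at 24 h. The libraries of a treated group lay above all libraries of the vehicle group of the same time. A handful of genes carried most of this sum. In vehicle cells at 4 h the leading levels were those of Slc7a5 (106.2 ± 13.5 CPM per kb) and Slc3a2 (97.3 ± 13.6), which did not differ beyond their spread. They were followed by Slc38a2, Slc7a1, Slc6a8 and Slc6a6 at 42.7 to 48.5, and the SD of Slc38a2 (8.26) took in the means of the other 3. In treated cells at 24 h Slc3a2 led at 323.3 ± 19.8 CPM per kb, followed by Slc7a5 at 118.0 ± 7.59 and Slc6a8 at 77.1 ± 1.39. At the other end, 28 of the 45 members reached 1 CPM per kb in at least 1 group.

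**Figure D1:**
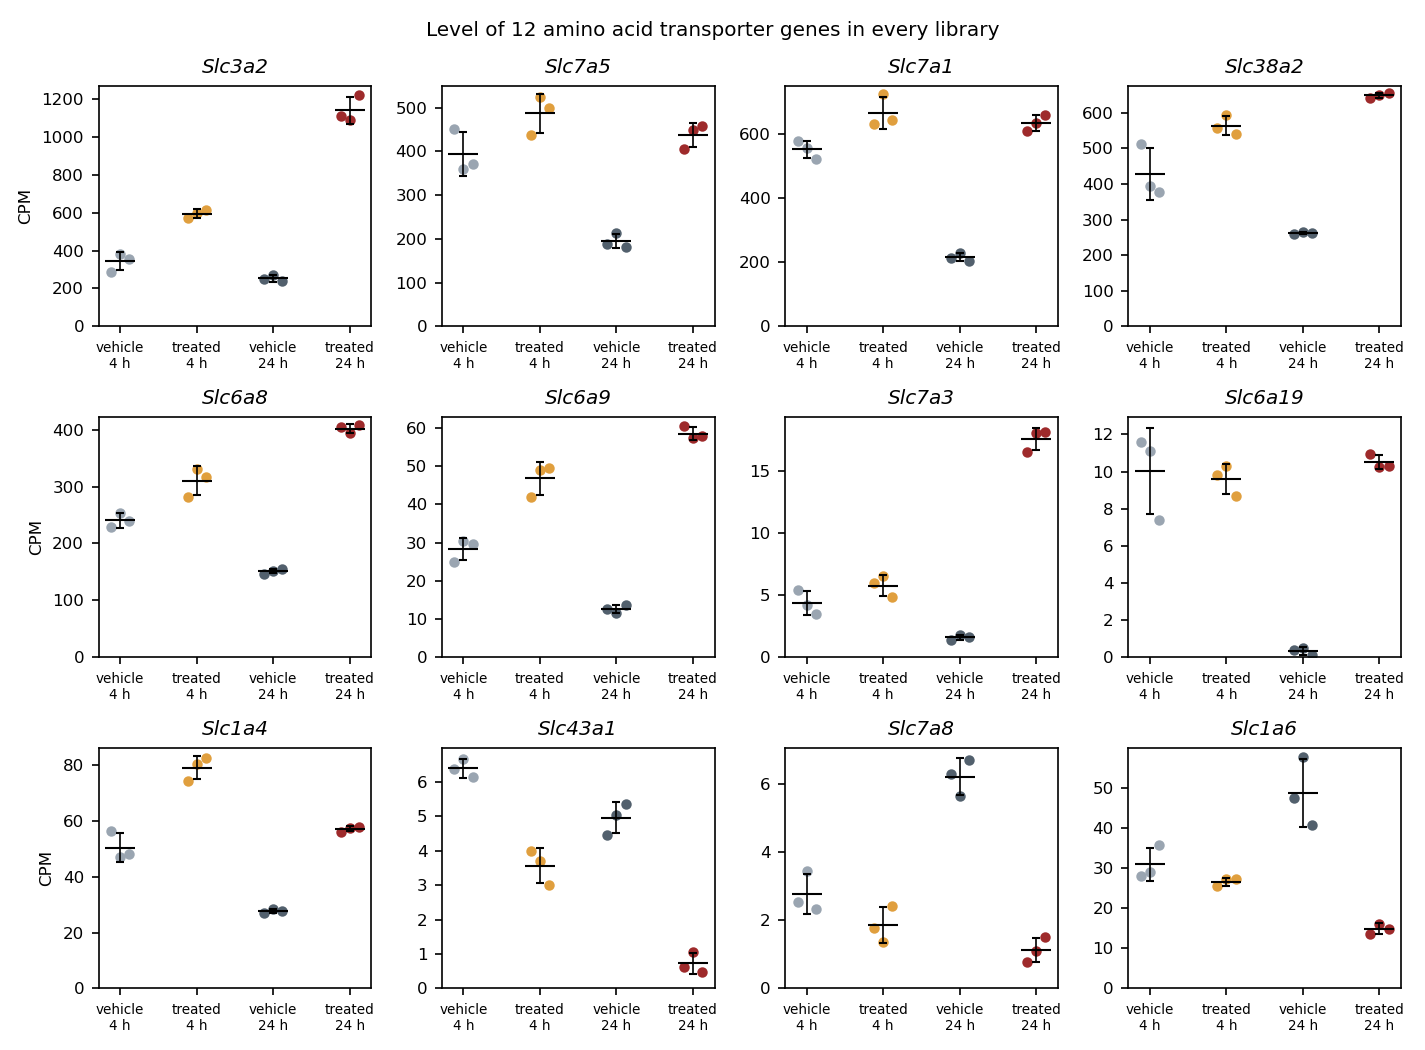
Level of 12 members in each library, in CPM on a linear axis that starts at 0 and differs between panels; points are libraries, the horizontal line is the mean and the bar 1 SD of 3 libraries. Slc3a2 rises from 238 to 274 CPM in vehicle to 1091 to 1221 CPM in treated libraries at 24 h, and Slc6a19 is near 0 only in vehicle at 24 h.

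After 4 h of MCB-613-10-1 few members differed from vehicle. Of the 36 members tested, 4 were higher (Slc3a2, Slc6a9, Slc1a4 and Slc6a8) and 1 was lower (Slc43a1) at an adjusted p under 0.05 in edgeR's quasi-likelihood test, the threshold for a call throughout. Over all 15336 genes tested at 4 h, 3.45 percent were called higher and 3.71 percent lower, so the members' share was 11.1% for higher calls and 2.78% for lower calls. The median log2 fold change of treated over vehicle was 0.15 over the members and -0.01 over all genes. Treated libraries lay wholly above the vehicle libraries for 10 of the 36 members and wholly below for 5, against 14.5 percent and 15.2 percent of all genes.

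Slc3a2 encodes the heavy chain known as CD98 heavy chain, which carries several SLC7 exchangers to the cell surface (ENSMUSG00000010095, GRCm39 chromosome 19, 8684246 to 8700733, minus strand). It stood at 289.7, 382 and 358 CPM in the vehicle libraries and at 570.0, 601 and 615 CPM in the treated libraries at 4 h. The groups did not overlap, and the log2 fold change was 0.80 (standard error, SE, 0.10, edgeR adjusted p = 0.000843).

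Slc6a9 encodes a glycine transporter (ENSMUSG00000028542, GRCm39 chromosome 4, 117691703 to 117732395, plus strand). Its level was 24.9, 30.3 and 29.7 CPM in vehicle and 41.9, 49.0 and 49.6 CPM in treated libraries, again without overlap, with 0.73 as the log2 fold change (SE 0.11, edgeR adjusted p = 0.00226). Slc1a4, the exchanger of alanine, serine and cysteine whose window is printed above, was at 56.3, 47.0 and 48.1 CPM in vehicle and at 74.5, 80.5 and 82.6 CPM in treated libraries. Its groups were likewise apart, and the log2 fold change was 0.65 (SE 0.10, edgeR adjusted p = 0.00194).

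Slc6a8, the creatine transporter, rose from 228, 254 and 239.6 CPM to 282, 331 and 317 CPM (log2 fold change 0.37, SE 0.09, edgeR adjusted p = 0.0278). The lone member called lower, Slc43a1, encodes a facilitated carrier of leucine and other large neutral amino acids. It was at 6.37, 6.68 and 6.14 CPM in vehicle and at 3.99, 3.70 and 2.99 CPM in treated libraries, or -0.84 on the log2 scale (SE 0.16, edgeR adjusted p = 0.00872). Both are low-margin calls: that of Slc6a8 was lost without treated replicate 2, treated replicate 3 or vehicle replicate 3 and with limma on FPKM (adjusted p = 0.0758 to 0.151), and that of Slc43a1 without treated replicate 3 (0.0599).

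Several abundant carriers had values near the threshold at 4 h. Slc38a2 was at 512, 395 and 378 CPM in vehicle and at 557, 593 and 541 CPM in treated libraries, a log2 fold change of 0.40 (edgeR adjusted p = 0.0547). For Slc7a5, Slc7a1, Slc36a1 and Slc38a7 the log2 fold changes were 0.31, 0.27, 0.29 and 0.31, with edgeR adjusted p from 0.057 to 0.107. The number of members called higher rose from 4 to 9 when vehicle replicate 1 was left out, and these 5 genes were the ones gained. All 5 were also called in the fit on all 12 libraries (edgeR adjusted p from 0.00485 to 0.0341), and Slc38a2, Slc7a1 and Slc36a1 with DESeq2 (0.0122 to 0.045). That library had the highest vehicle value at 4 h for each of the 5 and the lowest mean correlation with the other libraries of its group (r = 0.986, against 0.989 for the other vehicle libraries at 4 h). Slc36a4, a carrier of the SLC36 family, was near the threshold in the other direction, at 44.3, 36.6 and 39.2 CPM in vehicle and at 32.8, 29.9 and 31.3 CPM in treated libraries (-0.35, edgeR adjusted p = 0.056). It was called lower with DESeq2, the fit on all 12 libraries, library totals and no filter (0.012 to 0.0377).

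At 24 h most members tested differed between vehicle and treated cells, in both directions. Of the 35 members tested, 20 were higher, 13 were lower and 2 were not called (Slc38a6 and Slc7a7). Over all 15575 genes tested at 24 h, 36.7 percent were called higher and 38 percent lower, against 57.1% and 37.1% of the members tested, so the share of lower members was near that of all genes. The median log2 fold change was 0.38 over the members and -0.02 over all genes. Scaling by library totals in place of TMM moved the median of all genes to -0.21 and the share of higher among called genes from 49.1% to 39%, and 19 members were then higher and 13 lower. Treated libraries lay wholly above the vehicle libraries for 20 members and wholly below for 13, against 38.3 percent and 39.1 percent of all genes.

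**Figure D2:**
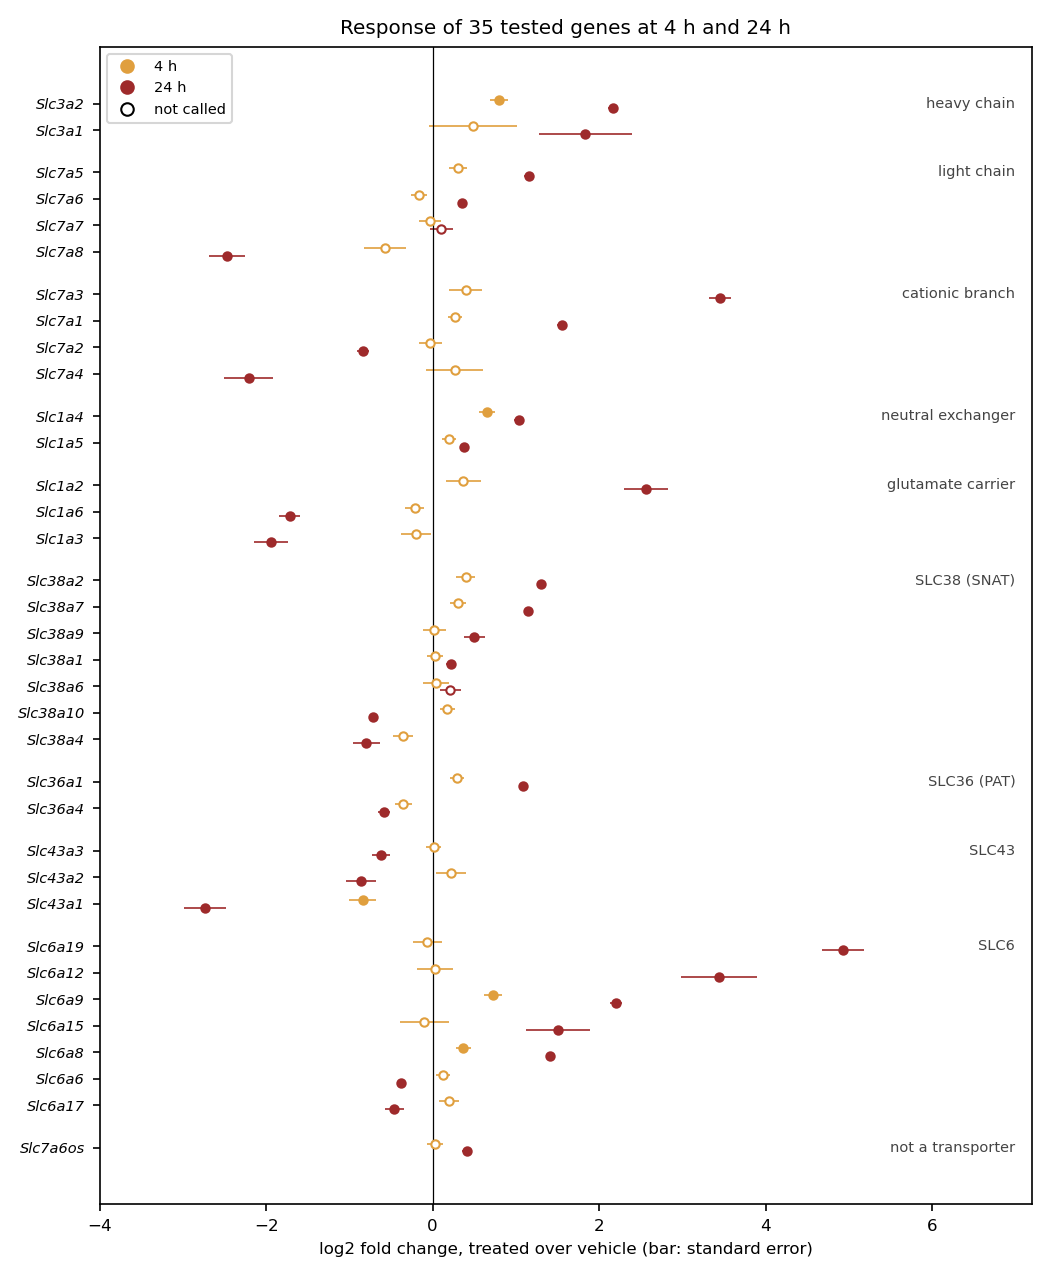
Log2 fold change of treated over vehicle at 4 h and 24 h for the 35 members tested at both times, grouped by role; bars are standard errors and open circles are genes not called by edgeR. All 3 SLC43 genes lie below 0 at 24 h, while most other families hold genes on both sides.

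The heavy chain gene had the largest fold change of the 5 members with the highest levels per kb in treated cells at 24 h. Slc3a2 was at 249, 274 and 238 CPM in vehicle and at 1111, 1091 and 1221 CPM in treated libraries at 24 h, with no overlap. The log2 fold change was 2.16 (SE 0.06), or 4.48-fold (edgeR adjusted p = 3.53e-16). The kidney and gut heavy chain Slc3a1 was called higher too (1.84, SE 0.55, edgeR adjusted p = 0.0058), but from under 1 CPM in every library. Slc3a1, with 125 reads in all, overlaps Prepl, with 14243 reads, by 767 bases on the opposite strand, and Prepl was higher too (log2 fold change 0.60, edgeR adjusted p = 1.01e-07). Whether the counting used strand is not given in the sources used here, so reads of overlapping genes may not be fully told apart.

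The light chains that bind these heavy chains did not move together. Slc7a5 encodes the leucine-importing exchanger that pairs with Slc3a2 (ENSMUSG00000040010, GRCm39 chromosome 8, 122607889 to 122634433, minus strand). It was at 189, 213 and 182 CPM in vehicle and at 405, 448 and 459 CPM in treated libraries, so the groups were apart by 1.16 on the log2 scale (SE 0.06, edgeR adjusted p = 2.91e-11). Slc7a6, which exchanges cationic for neutral amino acids, rose less, from 102, 103 and 97.4 CPM to 128, 128 and 130.2 CPM (0.35, edgeR adjusted p = 1.19e-06). Its close relative Slc7a7 was at 6.27, 5.77 and 6.14 CPM in vehicle and at 7.18, 6.24 and 6.25 CPM in treated libraries, and was not called (0.10, edgeR adjusted p = 0.501). Slc7a8, a neutral amino acid exchanger like Slc7a5, went the other way: it was at 6.30, 5.64 and 6.71 CPM in vehicle and at 0.784, 1.09 and 1.51 CPM in treated libraries. This was a fall of 5.56-fold (log2 fold change -2.47, SE 0.22, edgeR adjusted p = 3.71e-09) in a gene of low level.

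Per kb, the ratio of Slc3a2 to the sum of its light chains among the members (Slc7a5, Slc7a6, Slc7a7 and Slc7a8) was 0.923, 0.937 and 0.916 in vehicle libraries at 24 h. In treated libraries at 24 h it was 2.25, 2.05 and 2.24, so every treated library lay above every vehicle library. At 4 h the ratio was 0.522, 0.852 and 0.781 in vehicle and 1.10, 0.998 and 1.08 in treated libraries, also without overlap. Slc7a11, the cystine-importing light chain that is no member, was higher at both times (log2 fold change 2.41 at 4 h and 4.01 at 24 h). With it among the light chains the ratio at 24 h was 0.906 ± 0.0107 in vehicle and 1.86 ± 0.103 in treated cells (SD, n = 3). These are ratios of RNA levels and give no count of assembled pairs.

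**Figure D3:**
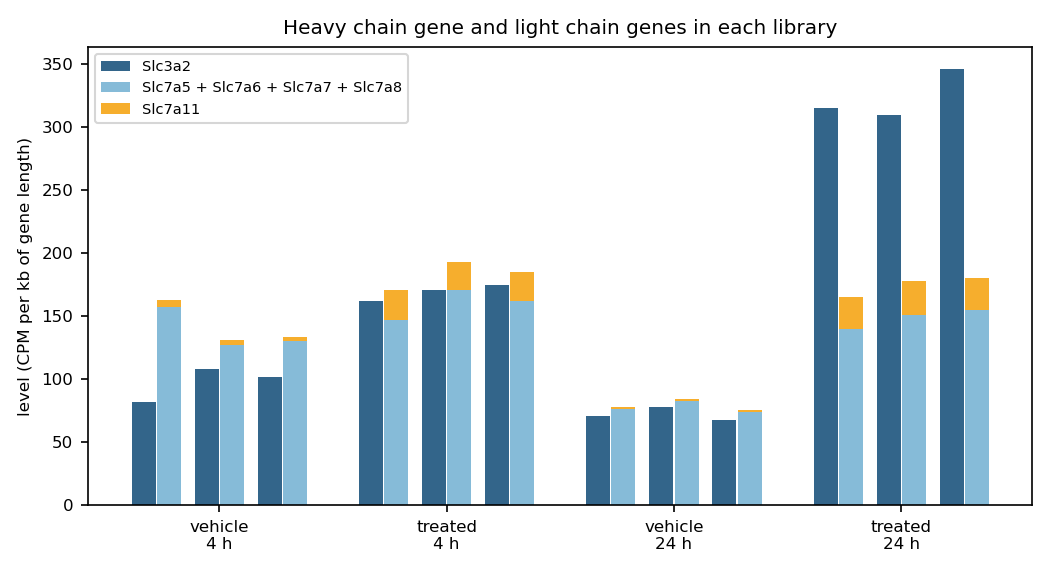
Level of the heavy chain gene Slc3a2 beside the stacked levels of the light chain members and of Slc7a11 in each library, in CPM per kb of gene length, axis from 0. In the 3 treated libraries at 24 h the Slc3a2 bar (309 to 346) exceeds its stack, and in the vehicle libraries of both times it stays below it.

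Of the cationic branch of SLC7, which holds carriers of arginine and lysine, 2 members rose and 2 fell. Slc7a1, the general cationic carrier whose window is printed above (GRCm39 chromosome 5, 148264220 to 148336714, minus strand), was at 213, 230.0 and 204 CPM in vehicle and at 609, 633 and 659 CPM in treated libraries. Its log2 fold change was 1.55 (SE 0.05), or 2.93-fold (edgeR adjusted p = 1.18e-15). Slc7a3, a cationic carrier best known from brain, went from 1.40, 1.78 and 1.63 CPM to 16.5, 18.0 and 18.1 CPM, or 10.9-fold (log2 fold change 3.45, SE 0.14, edgeR adjusted p = 2.28e-14). All treated libraries thus lay far above all vehicle libraries for both genes. Slc7a2, a cationic carrier linked to arginine supply in activated cells, fell from 46.8, 45.3 and 49.6 CPM to 27.3, 28.0 and 24.2 CPM (-0.84, SE 0.07, edgeR adjusted p = 2.4e-09). Slc7a4 also fell (-2.21, edgeR adjusted p = 1.61e-06), at under 4 CPM in every library.

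Of the 8 SLC38 members, sodium-coupled carriers of neutral amino acids, 7 were tested, 4 of which rose and 2 of which fell. Slc38a2, the carrier known to be raised when amino acids are scarce (GRCm39 chromosome 15, 96585273 to 96597611, minus strand; window above), was at 260.5, 265 and 264 CPM in vehicle and at 643, 651 and 655 CPM in treated libraries. The groups were far apart relative to their spread, by 1.30 on the log2 scale (SE 0.04, edgeR adjusted p = 1.32e-15). Slc38a7, which exports glutamine from lysosomes, rose from 34.9, 33.7 and 33.0 CPM to 77.4, 77.0 and 72.1 CPM (1.15, edgeR adjusted p = 9.27e-13). Slc38a9, the lysosomal arginine sensor of mTORC1, was at 8.29, 6.86 and 9.51 CPM in vehicle and at 12.7, 11.5 and 10.9 CPM in treated libraries (0.50, edgeR adjusted p = 0.00168). Slc38a1, a glutamine carrier, changed by 0.22 (edgeR adjusted p = 0.00276), from 48.7, 52.1 and 46.0 CPM to 57.0, 58.2 and 56.2 CPM. The call of Slc38a1 did not hold with library totals (adjusted p = 0.722), nor that of Slc38a9 with limma on FPKM (0.0591).

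The SLC38 genes that fell were Slc38a10 and Slc38a4. Slc38a10 was at 217, 189.9 and 210.4 CPM in vehicle and at 130.0, 120.5 and 127 CPM in treated libraries (-0.72, SE 0.05, edgeR adjusted p = 4.23e-10). Slc38a4 fell from 7.73, 7.42 and 6.05 CPM to 4.87, 3.52 and 3.90 CPM (-0.80, edgeR adjusted p = 0.000214). Neither pair of groups overlapped.

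Both neutral exchangers of SLC1 rose and the glutamate carriers of the same family were split. Slc1a4 was at 27.0, 28.4 and 27.7 CPM in vehicle and at 56.3, 57.5 and 58.0 CPM in treated libraries at 24 h (1.04, SE 0.06, edgeR adjusted p = 7.31e-12). Slc1a5, the glutamine exchanger, rose from 74.6 ± 0.797 to 97.6 ± 3.87 CPM (SD, n = 3; log2 fold change 0.38, SE 0.05, edgeR adjusted p = 1.17e-06). Both were apart between the groups, Slc1a5 by 1.3-fold.

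Slc1a6, a glutamate transporter best known from the cerebellum, had the highest level per kb of the glutamate carriers in each of the 4 groups. It was at 47.4, 57.6 and 40.7 CPM in vehicle and at 13.4, 16.1 and 14.9 CPM in treated libraries at 24 h, or -1.72 on the log2 scale (SE 0.13, edgeR adjusted p = 9e-07). Slc1a3, the glial glutamate and aspartate transporter, fell from 9.43, 6.43 and 11.6 CPM to 2.23, 2.42 and 2.53 CPM (-1.94, SE 0.20, edgeR adjusted p = 2.32e-07). In contrast Slc1a2, the main glutamate carrier of forebrain astrocytes, was higher (2.56, SE 0.26, edgeR adjusted p = 4.6e-07), at 0.916 to 1.47 CPM in vehicle and 5.67 to 10.2 CPM in treated libraries.

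Of the proton-coupled SLC36 carriers, Slc36a1, which moves small amino acids out of lysosomes, rose from 62.8, 62.6 and 58.8 CPM to 133, 133 and 127 CPM (1.09, SE 0.05, edgeR adjusted p = 1.76e-13). Slc36a4 fell from 40.7, 39.8 and 44.3 CPM to 27.8, 29.7 and 25.8 CPM (-0.59, edgeR adjusted p = 4.44e-07). The groups did not overlap for either gene, and the directions were opposite.

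All 3 SLC43 genes fell at 24 h. Slc43a1 was at 4.47, 5.04 and 5.36 CPM in vehicle and at 0.619, 1.06 and 0.487 CPM in treated libraries, or 6.65-fold lower (log2 fold change -2.73, SE 0.25, edgeR adjusted p = 8.59e-09). Slc43a2, which like Slc43a1 lets large neutral amino acids pass in either direction, fell by 0.86 on the log2 scale (edgeR adjusted p = 0.00029). Slc43a3, a carrier of purine nucleobases rather than amino acids, fell from 154, 119.7 and 153 CPM to 98.5, 92.1 and 87.9 CPM (-0.62, edgeR adjusted p = 0.00175). Macrophage and leukocyte markers moved beside the falls of Slc7a8, Slc43a2 and Slc1a3: of the 7 markers, 5 were lower and 2 higher at 24 h, with log2 fold changes of -1.48 for Lyz2, -1.99 for Adgre1 and 0.22 for Csf1r. Their part in these falls was not tested.

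The SLC6 family holds carriers of amino acids, of creatine and taurine, and of neurotransmitters, and 5 of its 7 tested members rose at 24 h. Slc6a8, the creatine transporter, was at 147, 151 and 154 CPM in vehicle and at 404, 394 and 408 CPM in treated libraries (1.41, SE 0.04, edgeR adjusted p = 8.6e-16). Slc6a9, the glycine transporter, went from 12.5, 11.7 and 13.6 CPM to 60.5, 57.3 and 57.8 CPM, or 4.62-fold (2.21, SE 0.07, edgeR adjusted p = 1.58e-15). Both groups were far apart. Slc6a9 overlaps B4galt2 on the opposite strand by 5939 bases, and B4galt2 moved the other way at 24 h (log2 fold change -1.89, edgeR adjusted p = 1.49e-12). The limit on strand given for Slc3a1 holds here too.

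Slc6a19, a neutral amino acid transporter best known from gut and kidney, showed the largest fold change among the members tested at 24 h. It was at 0.404, 0.495 and 0.120 CPM in vehicle libraries and at 10.9, 10.3 and 10.3 CPM in treated libraries, or 30.6-fold (4.93, SE 0.25, edgeR adjusted p = 1.13e-12). At 4 h it had been at 11.6, 11.1 and 7.39 CPM in vehicle and at 9.84, 10.3 and 8.70 CPM in treated libraries, which overlapped (-0.06, edgeR adjusted p = 0.862). The low values were thus those of vehicle at 24 h alone. Slc6a18, its neighbour on chromosome 13 at 73809871 to 73826142, had 0 reads in all 3 vehicle libraries at 24 h and 3, 4 and 10 reads in the treated ones. It was too low to be tested at that time, and a count of 0 allows up to 3 reads in a library.

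The other SLC6 genes called at 24 h were of mixed direction. Slc6a12, a betaine and GABA carrier, and Slc6a15, a carrier of branched-chain amino acids and proline, rose by 3.44 (edgeR adjusted p = 1.61e-06) and 1.51 (edgeR adjusted p = 0.00172), both at under 3 CPM in every library. As for Slc6a19, vehicle was lower at 24 h than at 4 h, by -3.04 for Slc6a12 and -1.66 for Slc6a15 on the log2 scale (edgeR adjusted p = 0.000444 and 0.00692), and treated cells differed between the times by 0.39 and -0.04 (0.167 and 0.902). The call of Slc6a15 was lost with limma on FPKM (0.055). Slc6a6, the taurine transporter, fell from 356, 388 and 343 CPM to 284, 287 and 270.0 CPM (-0.38, SE 0.05, edgeR adjusted p = 1.18e-06). Slc6a17, a vesicular neutral amino acid carrier of neurons, fell from 9.43, 10.0 and 10.1 CPM to 6.85, 7.70 and 6.96 CPM (-0.46, edgeR adjusted p = 0.0017). The neighbour gene Slc7a6os, no transporter, rose by 0.41 (edgeR adjusted p = 8.97e-06), from 32.3, 33.8 and 35.1 CPM to 45.7, 43.5 and 46.1 CPM.

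The responses at the 2 times shared no library. The 4 members higher at 4 h were all higher at 24 h, where they made up 4 of the 20 higher members, and the 1 member lower at 4 h was among the 13 lower at 24 h. Over all genes tested at 24 h, 36.7 percent were called higher and 38 percent lower, and genes called at both times were not counted. The difference between the responses, tested as an interaction over all 12 libraries, was called for 18 of 36 members with a higher and for 11 with a lower log2 fold change at 24 h than at 4 h. Over all genes tested for it, 26.7 percent were called higher and 27.1 percent lower, against 50% and 30.6% of the members. By size, the leading positive differences were those of Slc6a19 (5.00), Slc7a3 (3.06) and Slc6a9 (1.49), and the leading negative ones those of Slc7a8 (-1.90), Slc43a1 (-1.88) and Slc1a3 (-1.73), among members of at least 1 CPM per kb in a group.

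The vehicle libraries themselves differed between the times. Of 34 members tested in vehicle at 24 h against 4 h, 22 were lower and 8 higher at 24 h, against 25.8 percent lower and 25.9 percent higher over all 15594 genes tested. The median log2 fold change was -0.55 over the members and 0.01 over all genes. Among those lower in vehicle at 24 h, the log2 fold change was -4.89 for Slc6a19, -3.04 for Slc6a12, -1.66 for Slc6a15, -1.63 for Slc7a2, -1.46 for Slc7a3, -1.36 for Slc7a1, -1.28 for Slc1a2, -1.18 for Slc6a9 and -1.03 for Slc7a5 (edgeR adjusted p from 1.37e-06 to 0.00692). Among those higher it was 1.55 for Slc7a4, 1.16 for Slc7a8, 0.98 for Slc1a3, 0.85 for Slc43a2, 0.72 for Slc38a6 and 0.65 for Slc1a6 (edgeR adjusted p from 0.000487 to 0.00337). The call of Slc1a6 was lost without vehicle 4 h replicate 1 (0.0586). Time, harvest and any difference in how the 24 h cells were handled cannot be told apart here, and the column names of the 24 h group means carry a prefix that the labels do not explain.

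Among treated libraries, a comparison added after the levels were seen, 10 members were higher and 15 lower at 24 h than at 4 h of 36 tested, against 33.5 percent higher and 34.4 percent lower over all genes. The time comparisons share their libraries with the responses, so their values are set side by side only. Slc7a1 differed by -1.36 between the times in vehicle and by -0.07 in treated cells (edgeR adjusted p = 0.318), Slc7a5 by -1.03 and -0.16 (0.0554), and Slc6a19 by -4.89 and 0.12 (0.364). Slc3a2 differed by -0.45 in vehicle and 0.94 in treated cells, Slc7a6 by -0.41 and 0.12, and Slc38a2 by -0.71 and 0.20. Slc1a4 (-0.87 in vehicle, -0.47 in treated cells), Slc1a5 (-0.74, -0.54) and Slc7a2 (-1.63, -2.42) were lower at 24 h in both, while Slc7a8 differed by 1.16 and -0.73 and Slc1a6 by 0.65 and -0.84. In treated cells the call of Slc7a8 was lost in 5 alternatives (adjusted p = 0.0533 to 0.224) and that of Slc38a2 with library totals (0.155), while Slc7a5 was called in 5 alternatives (0.00139 to 0.0447) and Slc7a1 with library totals (0.00969). Slc6a6 differed little in vehicle (-0.01, edgeR adjusted p = 0.959) and lower in treated cells (-0.50).

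**Figure D4:**
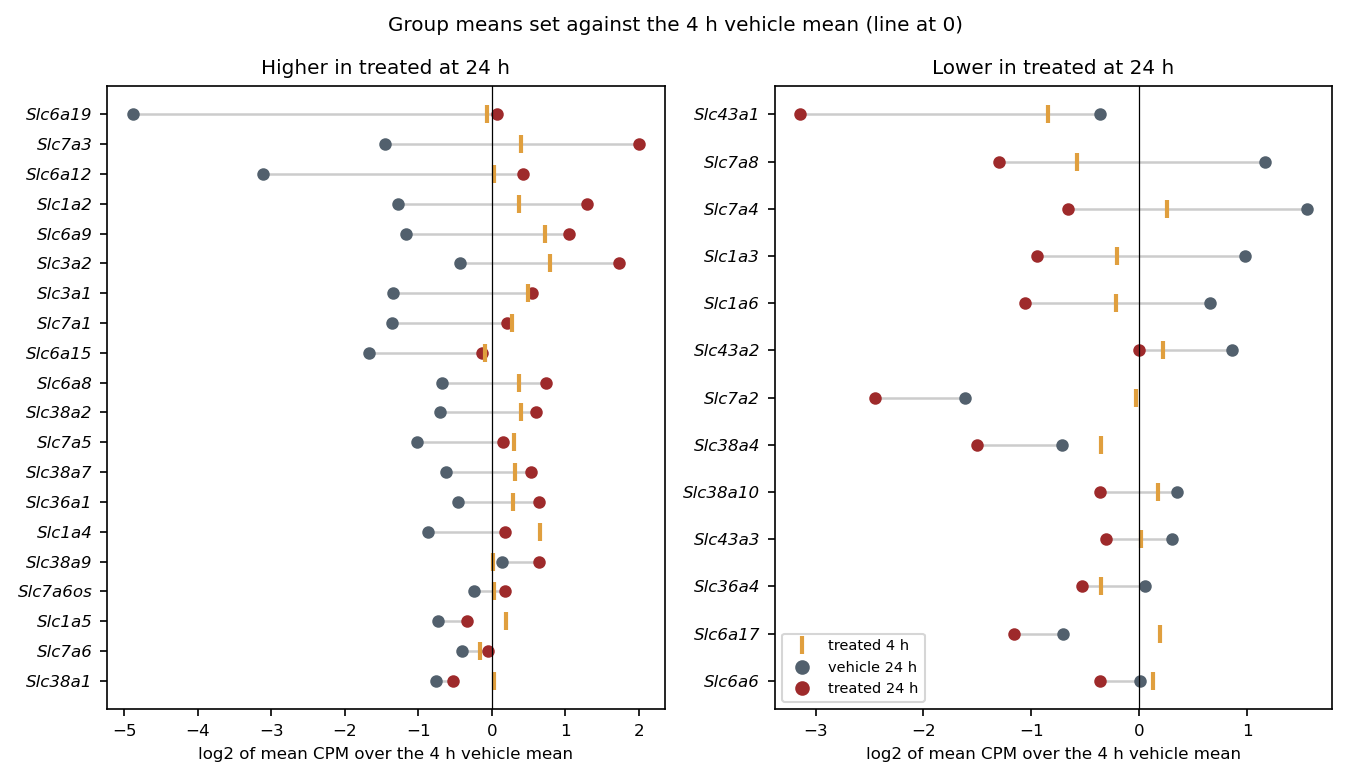
Log2 ratio of each group's mean CPM to the mean of vehicle at 4 h (line at 0) for the 20 members higher (left) and the 13 lower (right) in treated cells at 24 h; ticks are treated at 4 h, dark points vehicle at 24 h and red points treated at 24 h. For Slc6a19, Slc7a1 and Slc7a5 the treated 24 h point lies near 0 and the vehicle point below it, whereas for Slc3a2 and Slc7a3 the treated point lies above 1.5.

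A further 9 genes were members by the rule but too low to be tested in either response, with 20 to 67 reads over the 12 libraries. They include the glutamate carriers Slc1a1 and Slc1a7, the glutamine carrier Slc38a5, the SLC6 genes Slc6a3 (dopamine), Slc6a7 (proline), Slc6a16 and Slc6a20b, and the light chain Slc7a13. Slc7a13 had 19, 6 and 25 reads in vehicle libraries at 24 h and 0, 1 and 0 in treated ones.

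Of 40 genes of amino acid sensing and its signalling, 6 were called at 4 h, each of them higher, and 21 were higher and 15 lower at 24 h by edgeR, with median log2 fold changes of 0.05 and 0.37. The share higher was 15% at 4 h and 52.5% at 24 h, against 3.45 and 36.7 percent of all genes, and the share lower at 24 h was 37.5%, near the 38 percent of all genes. Those 6 were Trib3, Ddit4, Sesn2, Impact, Flcn and Fnip2. Sesn2, a leucine sensor, was at 58.3 CPM in vehicle and 235 CPM in treated cells at 24 h (4.01-fold), and Flcn, a partner of the Rag GTPases, rose by 1.82 and Rragc, 1 of these GTPases, by 1.54. Castor1, an arginine sensor, fell by 1.43 on the log2 scale and Sesn3 by 1.05. Atf4 itself had a log2 fold change of 0.33 at 4 h (edgeR adjusted p = 0.164) and 1.49 at 24 h (edgeR adjusted p = 1.91e-15). Of 18 carriers of amino acids, peptides and related solutes outside these families, 15 were tested, of which 2 were higher at 4 h (13.3%) and 10 higher (66.7%) and 4 lower (26.7%) at 24 h. Among them Slc66a1, which exports cationic amino acids from lysosomes, rose by 2.12 at 24 h, and Slc15a3, a lysosomal peptide carrier of immune cells, fell by 2.08.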

How the data were processed

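Libraries of 4 groups of 3 were compared as deposited. Per the submitters' processing notes, which give no role or order, the authors used DESeq2, featureCounts 1.5.0-p3 and HISAT2 2.0.5 with the build GRCm39 (mm39). Per the file headers, each time point's table holds raw counts per gene, a signal made by dividing these counts by a size factor per library, FPKM, gene length, and the authors' log2 fold changes with p-values. The deposited signal, log2 fold changes and p-values were not used for any value printed. The deposited FPKM served 1 alternative, log2(FPKM + 0.1) in limma 3.58.1 for genes with a mean FPKM of at least 0.1.

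The test was the quasi-likelihood F test of edgeR 4.0.16 on the deposited raw counts (R 4.3.3; default filter on low counts, TMM, robust dispersions), without a replicate block. Each response used its own 6 libraries, the interaction all 12, and each time comparison the 6 libraries of vehicle or treated cells. Adjusted p follows Benjamini and Hochberg over every gene tested, and called means an adjusted p under 0.05. Fold changes are treated over vehicle, or 24 h over 4 h. The tests were also run on simulated counts drawn with the spread fitted to these libraries, and the outcome is not given here. The filter left out 9 members, 1 of which is not reported here by name. DESeq2 1.42.0, library totals, no filter, a replicate block, all 12 libraries and leaving out each library were alternatives.

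The members, roles, gene lists and naming rule were chosen with earlier results of these data known. Values are named for the 25 members with the largest change at 24 h among those called and of at least 1 CPM per kb in a group, the 5 largest at 4 h, the 3 largest differences between the times in each direction, and 11 genes named whatever their result. Other members named are exceptions of a family or low-count genes and were chosen after their values were seen. The treated comparison between the times was added after the data were seen.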

Additional observations from a re-analysis of the deposited data

Results flagged for a closer look

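The response to MCB-613-10-1 differed between 24 h and 4 h, by edgeR's test of the interaction over 12 libraries, for 23 of the 27 members named by the rule, which took the largest changes and so helps to set that count, against 26.7 percent higher and 27.1 percent lower over all genes. Each value here is the log2 fold change at 24 h minus that at 4 h, each measured against vehicle of the same time. Among carriers that were higher at 24 h it was 5.00 for Slc6a19, 3.06 for Slc7a3, 1.49 for Slc6a9, 1.37 for Slc3a2, 1.28 for Slc7a1 and 1.05 for Slc6a8 (edgeR adjusted p from 1.16e-09 to 5.8e-08). It was 0.91 for Slc38a2, 0.86 for Slc7a5, 0.85 for Slc38a7 and 0.80 for Slc36a1 (edgeR adjusted p from 1.06e-06 to 2.09e-05). Smaller differences were those of Slc7a6 (0.52), Slc38a9 (0.49), Slc1a4 (0.40) and Slc7a6os (0.39), with edgeR adjusted p from 0.0004 to 0.0384.

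Among members that were lower at 24 h the difference was -1.90 for Slc7a8, -1.88 for Slc43a1, -1.73 for Slc1a3 and -1.50 for Slc1a6 (edgeR adjusted p from 7.96e-07 to 0.000149). It was -0.89 for Slc38a10, -0.80 for Slc7a2, -0.65 for Slc6a17, -0.62 for Slc43a3 and -0.50 for Slc6a6 (edgeR adjusted p from 9.15e-07 to 0.00188). Vehicle libraries of both times enter each difference, and their own change with time is given in the report.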

How the results depend on the processing

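No member that was called, in the analysis as reported or under the alternative, changed direction under any alternative run. Members that were not called did so 47 times, over 17 pairs of member and comparison. At 4 h, where 4 members were higher, 1 lower and 1098 genes called in all, the counts moved most. DESeq2 called 7 higher and 2 lower, the fit on all 12 libraries 10 and 2 (2198 genes), library totals 4 and 2, no filter 6 and 2, and limma on FPKM 3 and 1 (571 genes). Leaving out each library gave 3 to 9 higher, 0 to 1 lower and 443 to 1760 genes. In these smaller fits fewer samples were tested, and the cause of the other moves was not tested. At 24 h the alternatives gave 18 to 22 higher and 13 to 14 lower members, and Slc38a6 was called without treated 24 h replicate 3 (adjusted p = 0.0102). The difference between the responses gave 15 to 19 higher and 11 to 13 lower members. There Slc38a9 lost its call in 11 alternatives (0.0502 to 0.148), and Slc1a4 (0.0596) and Slc7a6os (0.0627) lost theirs with library totals. In vehicle at 24 h against 4 h, 7 to 9 members were higher and 20 to 23 lower, and Slc43a1 lost its call in 10 alternatives (0.0584 to 0.158). In treated cells, 8 to 11 were higher and 12 to 18 lower.

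Library totals moved the median log2 fold change of all genes to -0.06 at 4 h, with 34.5% of called genes higher against 48.2% with TMM, to -0.14 for the difference between the responses and to -0.12 for the treated time comparison. Same-numbered vehicle and treated libraries deviated together only weakly (r = 0.06 to 0.0899 at 4 h, -0.0305 to 0.0221 at 24 h). With 3 libraries in a group, these values cannot decide whether the numbers pair the samples. At 4 h each library correlated best with its own number, a hint from the data and not from the design. With the replicate block, 8 members were higher and 2 lower at 4 h (1953 genes), 20 and 13 at 24 h, and 18 and 11 for the difference between the responses. The block added Slc38a2, Slc7a1, Slc36a1 and Slc38a7 to those higher at 4 h and Slc36a4 to those lower (adjusted p = 0.0217 to 0.0497). The 9 members with 67 reads or fewer over the 12 libraries were too low to test in either response, and Slc6a18 at 24 h.

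The log2 differences that changed sign without a call were small in most cases. With library totals those at 4 h were -0.034 for Slc38a1, -0.045 for Slc43a3, -0.031 for Slc6a12, -0.029 for Slc7a6os, -0.016 for Slc38a6 and -0.037 for Slc38a9, and Slc7a2 was at 0.009 with limma on FPKM. For Slc7a7 library totals gave -0.089 at 24 h and -0.001 for the difference between the responses. Leaving out each library gave, at 4 h, -0.043 to 0.117 for Slc38a1, -0.103 to 0.139 for Slc38a6, -0.038 to 0.13 for Slc38a9, -0.033 to 0.097 for Slc43a3, -0.026 to 0.107 for Slc6a12, -0.264 to 0.237 for Slc6a15, -0.06 to 0.767 for Slc6a18, -0.241 to 0.054 for Slc6a19, -0.2 to 0.093 for Slc7a2, -0.024 to 0.073 for Slc7a6os and -0.064 to 0.015 for Slc7a7. In vehicle between the times it gave -0.015 to 0.122 for Slc36a4 and -0.055 to 0.037 for Slc6a6, which was at 0.004 in the fit on all 12 libraries, 0.033 with library totals and 0.003 with no filter. In treated cells it gave -0.149 to 0.34 for Slc3a1, at -0.066 with library totals, and -0.229 to 0.132 for Slc6a15. The cause was not tested.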

Other observations

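Summed by role, levels differed between vehicle and treated cells at 24 h in both directions. In CPM per kb at 24 h, the cationic branch of SLC7 summed to 24.9 ± 0.905 in vehicle and 62.6 ± 2.24 in treated cells (SD, n = 3), and the SLC38 family to 76.4 ± 1.92 and 117.9 ± 0.624. The glutamate carriers summed to 23.8 ± 3.65 in vehicle and 7.80 ± 0.532 in treated cells, and the SLC43 family to 33.4 ± 4.33 and 21.3 ± 1.28. Most of the SLC43 sum was Slc43a3, at 31.8 in vehicle and 20.8 in treated cells. Most of the cationic sum was Slc7a1, at 18.7 and 55.0, while Slc7a2 and Slc7a4 fell. Slc1a6 made up most of the glutamate carrier sum, at 22.6 in vehicle and 6.87 in treated cells, while Slc1a3 fell and Slc1a2 rose. Within the SLC38 sum, Slc38a2 was at 29.7 in vehicle and 73.5 in treated cells, and Slc38a10 at 32.0 and 19.6. In each of the 4 role groups the libraries of vehicle and treated cells at 24 h did not overlap. At 4 h the same sums were 65.0 ± 5.98 and 75.0 ± 5.15 for the cationic branch and 95.1 ± 9.08 and 116.3 ± 5.50 for SLC38. They were 15.1 ± 2.01 and 13.2 ± 0.410 for the glutamate carriers, and 27.3 ± 2.53 and 27.1 ± 1.40 for SLC43. The libraries of vehicle and treated cells at 4 h overlapped for SLC43 and not for the other role groups named here.

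Slc7a5 made up 67.6% ± 1.61 of the summed level of the light chain members in vehicle cells at 24 h and 79.5% ± 1.01 in treated cells (SD, n = 3). At 4 h its share was 76.9% ± 0.518 in vehicle and 82.1% ± 1.45 in treated cells. With Slc7a11 counted among the light chains, the share at 24 h was 66.2% ± 1.64 in vehicle and 67.6% ± 1.22 in treated cells, a difference within the spread of the libraries. At 4 h the share counted this way was 74.6% ± 0.386 in vehicle and 71.7% ± 2.39 in treated cells. It was thus lower in treated cells, without overlap of the libraries.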
